A study of Mus musculus with 21 samples.

Results

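Leydig steroidogenesis genes make the machinery by which the interstitial Leydig cells of the testis produce androgens, together with a peptide hormone of the same cells. The members were the 9 genes Star, Cyp11a1, Cyp17a1, Hsd3b1, Hsd3b6, Hsd17b3, Nr5a1, Lhcgr and Insl3, chosen by name from the 37620 genes of the RNA-seq table, and all 9 passed a filter that keeps genes averaging 0.1 FPKM or more (FPKM is the number of fragments mapped to a gene, scaled by transcript length and by the depth of the library). The 12 libraries came from germ cells enriched from testes of wild-type C57BL/6J (B6) males at 12 dpp (days post partum), after digestion with collagenase and trypsin, and are labelled as spermatocytes. Each carries 1 of 4 sample numbers, 186wt, 343wt, 444wt or 456wt, and 3 libraries share a number, so every group had the same strain, genotype and age, no treatment was given, and the comparison is between samples. A sample's level is the mean of its 3 libraries, and means ± SD over samples are of 4 values. The methods describe RNA extraction from 4 replicates, so the 3 libraries of a number appear to be repeats of 1 RNA, although the labels do not say so. The p-values then measure the spread between libraries, which may be technical, and compare these 4 samples only.

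In Leydig cells, luteinizing hormone binds its receptor and raises cAMP, which drives the delivery of cholesterol into mitochondria and the transcription of steroid enzymes. Cholesterol is cut to pregnenolone in the mitochondrion and is then converted by enzymes of the endoplasmic reticulum to progesterone, androstenedione and testosterone. The mouse testis forms a fetal and, after birth, an adult Leydig cell population, and androstenedione made by the fetal cells is converted to testosterone in Sertoli cells.

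The libraries held RNA of several cell types. The list of meiotic genes had a median of 17.6 to 29.9 FPKM over the 4 samples, the list of spermatogonial genes 38.5 to 60.6 FPKM and the list of Sertoli cell genes, which mark the nurse cells of the tubules, 46.0 to 93.9 FPKM. In these bulk samples fewer cells of a type and less RNA per cell cannot be told apart. The depth estimated from the steps between low values was 12.95 to 18.05 M (mega) fragments per library, with a median of 15 M.

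All 9 members were measured in each of the 12 libraries, at mean levels from 1.47 to 51.7 FPKM. Of the 9, 8 were lower in 444wt than in 343wt, with log2 differences in level between 0.56 for Nr5a1 and 4.62 for Hsd3b6, while Hsd17b3 was higher in 444wt. limma's F-test over the 4 samples called all 9 members at an adjusted p under 0.05, but it called 58.2% of all 20795 genes tested as well. With a range over 1 on the log2 scale (the highest minus the lowest of the 4 sample means) as a further condition, 8 members were called, all but Nr5a1, against 10.5% of all genes. The median range was 2.94 over the members and 0.55 over all genes tested. The members and the lists used below were chosen with earlier results of these data known, so such contrasts are descriptions.

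**Figure D1:**
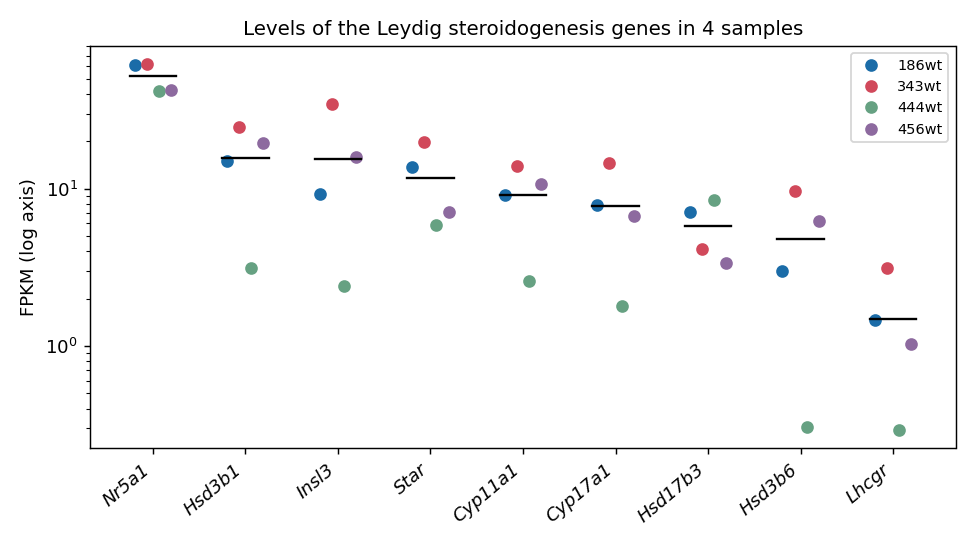
Level of each gene (FPKM, log axis) in the 4 samples, as coloured points for the means of 3 libraries, with a black line at the mean of the 4 samples. Nr5a1 stands above the others at 41.9 to 61.7 FPKM, and the 444wt point is the lowest for every gene but Hsd17b3.

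Nr5a1 encodes steroidogenic factor 1, the nuclear receptor that activates steroid enzyme genes in gonads and adrenal and is made in Sertoli cells as well as in Leydig cells. It lies on chr2 (38548176 to 38570062, minus strand, NCBI build 37, as for all positions of genes given here). It had 60.6 ± 1.91 FPKM in 186wt (SD, n = 3 libraries, here and for the other members), 61.7 ± 0.62 in 343wt, 41.9 ± 0.96 in 444wt and 42.5 ± 1.79 in 456wt. The samples thus formed a higher and a lower pair, which did not overlap. Within the pairs the log2 differences were 0.03 (SE 0.03, limma adjusted p = 0.605) between 343wt and 186wt and 0.02 (SE 0.03, adjusted p = 0.658) between 456wt and 444wt. Between the pairs the differences were 0.51 to 0.56, and the F-test gave an adjusted p of 4.46e-08. The same split was seen in the Sertoli list, whose summed level was 4498 and 4657 FPKM in 186wt and 343wt, and 2608 and 2776 FPKM in 444wt and 456wt. The part of Sertoli cells in the level of Nr5a1 was not tested.

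Lhcgr, the receptor for luteinizing hormone (chr17, 89140889 to 89191316, minus strand, 11 exons), was the lowest member, with a mean of 1.47 ± 1.19 FPKM (SD, n = 4), or 0.93 without 343wt. It had 1.46 ± 0.32 FPKM in 186wt, 3.11 ± 0.22 in 343wt, 0.29 ± 0.07 in 444wt and 1.03 ± 0.13 in 456wt. The libraries of 343wt lay above and those of 444wt below all others. The level in 444wt rested on about 33 fragments, with an exact 95% Poisson interval of 0.201 to 0.411 FPKM that covers counting error only. The log2 difference between 343wt and 444wt was 3.04 (SE 0.18, limma adjusted p = 1.65e-07), and that between 186wt and 456wt, 0.45 (SE 0.18), did not pass (adjusted p = 0.0800). The range of 3.04 was 1.51 without 444wt and 1.98 without 343wt.

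Star encodes the protein that moves cholesterol to the inner mitochondrial membrane, the step acutely controlled by luteinizing hormone (chr8, 26918946 to 26925782, plus strand). It had 13.8 ± 0.40 FPKM in 186wt, 19.9 ± 0.48 in 343wt, 5.86 ± 0.45 in 444wt and 7.13 ± 0.76 in 456wt. The highest library of 444wt, at 6.38 FPKM, overlapped the lowest of 456wt, at 6.31 FPKM. All 6 pairs of samples differed by limma, including 456wt and 444wt with a log2 difference of 0.28 (SE 0.08, adjusted p = 0.0136). The range of Star, 1.75, was among the smaller ones of the members.

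Cyp11a1, the mitochondrial cytochrome P450 that cuts the side chain of cholesterol to give pregnenolone (chr9, 57862820 to 57874827, plus strand), had 9.07 ± 0.40 FPKM in 186wt, 13.9 ± 1.39 in 343wt, 2.57 ± 0.09 in 444wt and 10.7 ± 1.13 in 456wt. Here 444wt stood apart from 3 samples that lay closer to each other. Without 444wt the range fell from 2.38 to 0.60, and the F-test in limma still passed (adjusted p = 0.00144). The log2 difference between 456wt and 186wt, 0.23 (SE 0.09), did not pass (adjusted p = 0.0598).

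Cyp17a1, the P450 that turns progestins into androgens (chr19, 46741655 to 46747464, minus strand), had 7.90 ± 0.59 FPKM in 186wt, 14.5 ± 1.11 in 343wt, 1.80 ± 0.18 in 444wt and 6.72 ± 0.63 in 456wt. Its level was 8.04 times as high in 343wt as in 444wt. The log2 difference between 186wt and 456wt, 0.23 (SE 0.10), did not pass limma's test (adjusted p = 0.0815), and the other 5 pairs did. Without 444wt the range was 1.10 in place of 2.94.

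The isomerases Hsd3b1 and Hsd3b6 convert pregnenolone to progesterone, and Hsd3b6 is known as a form of the adult Leydig cell. The genes are neighbours on chr3, Hsd3b1 at 98656117 to 98663717 and Hsd3b6 at 98609427 to 98618366, both on the minus strand. Their promoters, and those of Hsd17b3 and Insl3, are shown because Hsd3b1 and Hsd3b6 are neighbours with unequal ranges, Hsd17b3 had its highest level where the others were lowest, and Insl3 had the largest range after Hsd3b6. The sequences are from RefSeq in build GRCm38.p6 and run from 250 bases before to 50 after the start, and capitals mark the letters AGATAA, a core of GATA factor sites, on either strand.
Hsd3b1 (chr3:98859745-98860044, minus strand): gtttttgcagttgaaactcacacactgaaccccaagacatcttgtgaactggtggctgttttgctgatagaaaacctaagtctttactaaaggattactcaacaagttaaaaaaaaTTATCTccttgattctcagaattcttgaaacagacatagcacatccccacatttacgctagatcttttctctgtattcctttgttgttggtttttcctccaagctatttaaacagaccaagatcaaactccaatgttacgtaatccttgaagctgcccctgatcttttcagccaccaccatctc
Hsd3b6 (chr3:98814394-98814693, minus strand): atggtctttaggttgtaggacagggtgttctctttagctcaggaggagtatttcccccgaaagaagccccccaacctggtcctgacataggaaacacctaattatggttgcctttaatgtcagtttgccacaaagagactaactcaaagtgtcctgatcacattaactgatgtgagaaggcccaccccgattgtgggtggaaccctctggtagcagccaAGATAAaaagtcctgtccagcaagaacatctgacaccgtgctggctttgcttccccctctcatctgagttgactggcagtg
Hsd17b3 (chr13:64089152-64089451, minus strand): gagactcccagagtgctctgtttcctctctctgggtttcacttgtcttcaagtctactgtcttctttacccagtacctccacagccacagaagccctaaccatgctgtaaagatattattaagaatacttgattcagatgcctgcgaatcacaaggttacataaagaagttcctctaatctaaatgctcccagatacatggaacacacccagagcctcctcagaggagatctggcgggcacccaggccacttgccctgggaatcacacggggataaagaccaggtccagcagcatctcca
Insl3 (chr8:71689002-71689301, plus strand): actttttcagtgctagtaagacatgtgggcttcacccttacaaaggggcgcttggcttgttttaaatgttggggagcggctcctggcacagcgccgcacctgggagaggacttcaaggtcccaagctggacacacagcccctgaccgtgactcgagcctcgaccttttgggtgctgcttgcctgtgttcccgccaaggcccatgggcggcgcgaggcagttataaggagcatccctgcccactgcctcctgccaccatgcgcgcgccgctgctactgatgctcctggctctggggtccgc
The table had 7 promoters for 6 of the members (Cyp11a1 with 2, Hsd17b3, Hsd3b1, Hsd3b6, Insl3 and Lhcgr). AGATAA stood in 2 of the 7, in Hsd3b1 at -134 on the strand opposite to the gene (printed as its complement TTATCT) and in Hsd3b6 at -31 on the gene's own strand, counted from the start, and in 11.2% of all 32851 promoters. The other letters searched on both strands were CAAGGTCA and CAAGGCCA (forms of the site of steroidogenic factor 1), TATAAA and TGACGTCA (the cAMP response element). None of the 7 windows held any of them, against 1.56%, 2.40%, 13.6% and 1.79% of all promoters. Only these exact letters were searched, so the lack of a match does not show the lack of a site. Also, 7 windows are too few to show a shortfall against these shares.

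Hsd3b1 had 15.0 ± 0.91 FPKM in 186wt, 24.7 ± 0.76 in 343wt, 3.13 ± 0.60 in 444wt and 19.4 ± 0.68 in 456wt. Hsd3b6 had 2.99 ± 0.21 FPKM in 186wt, 9.66 ± 0.46 in 343wt, 0.31 ± 0.10 in 444wt and 6.19 ± 0.14 in 456wt. Both genes took the same order of samples, and all 6 pairs of samples differed for each of them by limma. The range of Hsd3b6, 4.62 (limma adjusted p = 2.66e-09), exceeded that of Hsd3b1, 2.96 (adjusted p = 2.29e-09), and without 444wt they were 1.66 and 0.72. The level of Hsd3b6 in 444wt rested on about 24 fragments, with an exact Poisson interval of 0.198 to 0.459 FPKM. The ratio of Hsd3b6 to Hsd3b1 within a library was 0.391 ± 0.026 in 343wt, 0.319 ± 0.019 in 456wt, 0.20 ± 0.02 in 186wt and 0.098 ± 0.028 in 444wt. The libraries of the 4 samples did not overlap in this ratio, and the difference of ratios was not tested.

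The family of Hsd3b1 has near-identical members, among which the authors' counting could divide reads. Of the 100-base windows of the Hsd3b6 transcript, 8.57% matched Hsd3b2 or Hsd3b3 transcripts with at most 1 mismatch, and no window of Hsd3b1 matched a transcript of another protein-coding gene. Hsd3b2 had 9.90 FPKM in 186wt, 7.97 in 343wt, 9.36 in 444wt and 7.0 in 456wt, a range of 0.49 (limma adjusted p = 0.000207) with the highest level in 186wt. Hsd3b3 and Hsd3b4 had means of 0.029 and 0.003 FPKM, and Hsd3b5 was listed at 0 in all libraries.

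Hsd17b3, which reduces androstenedione to testosterone, is the last enzyme of the route (chr13, 64159582 to 64190509, minus strand). It had 7.06 ± 0.53 FPKM in 186wt, 4.15 ± 0.61 in 343wt, 8.42 ± 0.46 in 444wt and 3.39 ± 0.22 in 456wt. It was the member with its highest level in 444wt, where the other 8 were lowest. The log2 difference between 444wt and 343wt was 1.01 (SE 0.10, limma adjusted p = 1.15e-05), and the F-test over the 4 samples gave an adjusted p of 1.63e-06. The pairs 444wt with 186wt (adjusted p = 0.0769) and 343wt with 456wt (adjusted p = 0.0520) did not pass. The ratio of Hsd17b3 to Cyp17a1 within a library was 0.900 ± 0.139 in 186wt, 0.289 ± 0.061 in 343wt, 4.72 ± 0.76 in 444wt and 0.506 ± 0.052 in 456wt. Among the lists of other cell types, 10 of 11 meiotic genes and 8 of 8 spermatogonial genes were also highest in 444wt, as were 37.4% of all genes called. In 186wt, where Hsd17b3 had its next highest level, 7 of the 8 spermatogonial genes were lowest, against 28.5% of all genes called. The summed meiotic list was also next highest in 186wt, at 339.8 FPKM, after 429.5 in 444wt, with 292.1 in 456wt and 259.8 in 343wt. The part of these cells in the level of Hsd17b3 was not tested.

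Insl3 encodes a relaxin-like hormone of Leydig cells that guides the descent of the testis (chr8, 74213113 to 74214474, plus strand, 2 exons). It had 9.24 ± 0.52 FPKM in 186wt, 34.4 ± 1.61 in 343wt, 2.41 ± 0.43 in 444wt and 15.9 ± 2.17 in 456wt. All 4 samples were apart, and all 6 pairs differed by limma. The log2 difference between 343wt and 444wt was 3.80 (SE 0.12, adjusted p = 8.83e-10), and without 444wt the range was 1.89. The last part of Jak3, a kinase gene on the same strand (74200195 to 74214474), overlaps Insl3 with 404 shared exonic bases, and 58.4% of the 100-base windows of Insl3 also matched Jak3, so its reads could be divided between both genes. Jak3 had 0.86 FPKM in 186wt, 0.90 in 343wt, 0.70 in 444wt and 1.14 in 456wt, and did not pass the F-test (adjusted p = 0.112). The ratio of Insl3 to Star was 0.669 ± 0.023 in 186wt, 1.73 ± 0.04 in 343wt, 0.409 ± 0.044 in 444wt and 2.25 ± 0.38 in 456wt.

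**Figure D2:**
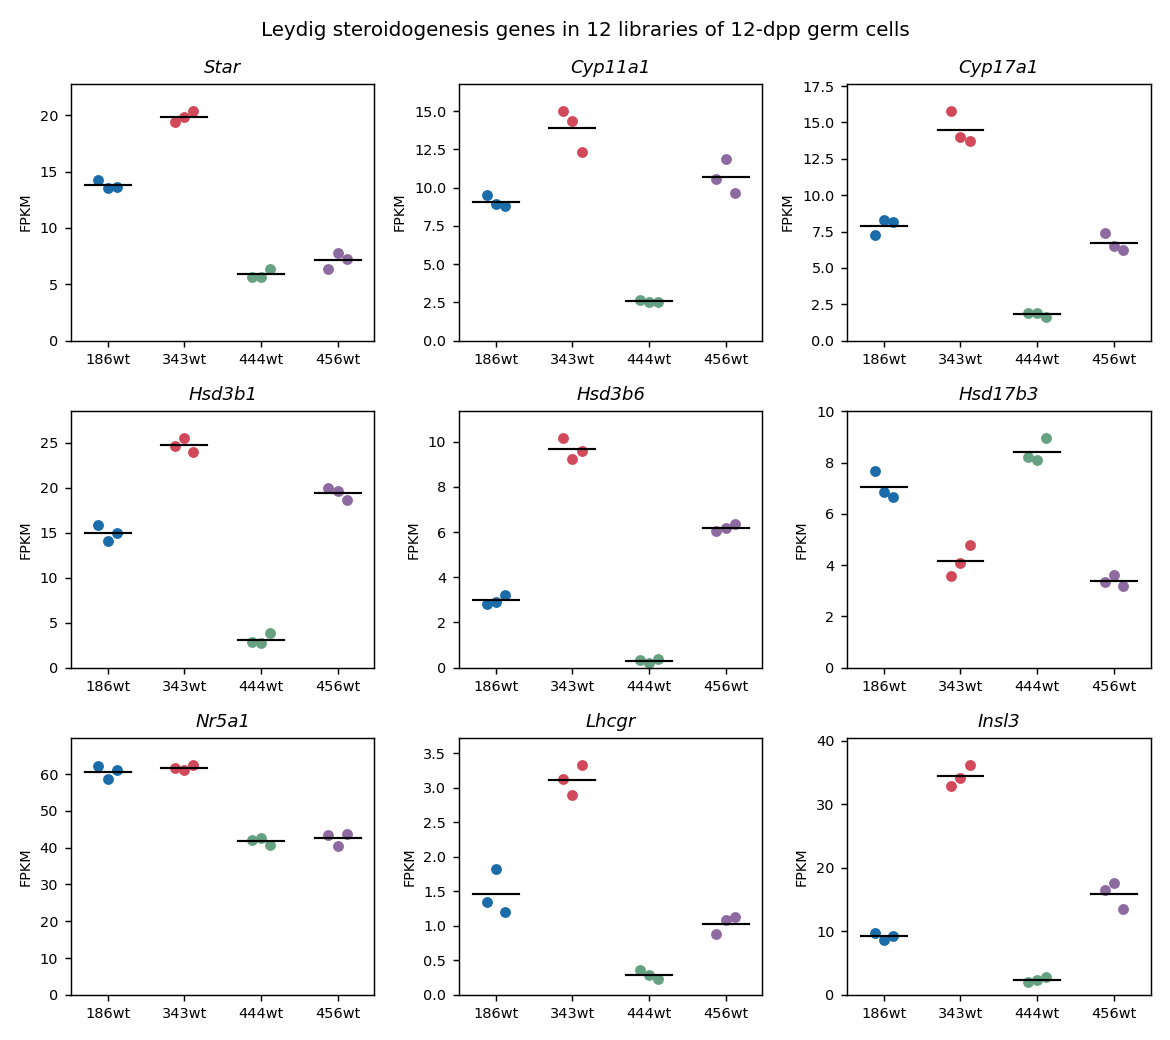
Level of each gene (FPKM, linear axis from 0) in the 12 libraries, with 3 points per sample and a black line at their mean. Hsd17b3 is highest in 444wt at 8.42 FPKM, where Hsd3b6 and Lhcgr are near 0.3 FPKM.

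The order of the levels, which FPKM puts on a per-length scale, was Nr5a1, Hsd3b1, Insl3, Star, Cyp11a1, Cyp17a1, Hsd17b3, Hsd3b6 and Lhcgr. Nr5a1 had a mean of 51.7 ± 10.97 FPKM (SD, n = 4) and exceeded 95.1% of all genes in the table, and Hsd3b1, at 15.6 ± 9.19 FPKM, exceeded 82.8%. The ranges of Nr5a1 and Hsd3b1 over the 4 samples did not overlap. Each of the other 7 neighbours in the order overlapped, as for Hsd3b1 and Insl3, at 15.5 ± 13.8 FPKM, or Cyp11a1 and Cyp17a1, at 9.05 ± 4.76 and 7.73 ± 5.23 FPKM. Without 343wt the mean was 9.18 FPKM for Insl3 and 3.16 for Hsd3b6, and Hsd17b3, at 6.29, lay above Cyp17a1, at 5.48. Insl3 was above Star in 2 of the 4 samples and Hsd17b3 above Hsd3b6 in 2 of the 4. Summed without Nr5a1, the members had 66.5 FPKM in 186wt, 124.3 in 343wt, 24.8 in 444wt and 70.5 in 456wt.

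The 6 pairs of samples gave 54 comparisons of a member, of which 47 passed by limma (adjusted over all genes and pairs). Between 343wt and 444wt, 8 members were higher in 343wt, against 17.0% of all genes, and Hsd17b3 was lower, against 29.3%. The pairs 186wt with 343wt, 186wt with 444wt, 343wt with 456wt and 444wt with 456wt called 8 of 9 members each, against 24.1%, 41.6%, 41.0% and 29.9% of all genes. The pair of 186wt and 456wt called 6 members, against 40.5% of all genes. The 3 libraries of 343wt lay above the other 9 for 7 members (5.81% of all genes), and the 3 libraries of 444wt lay below the other 9 for 6 members (7.48% of all genes). The 7 did not include Nr5a1 and Hsd17b3, and the 6 did not include these 2 and Star.

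**Figure D3:**
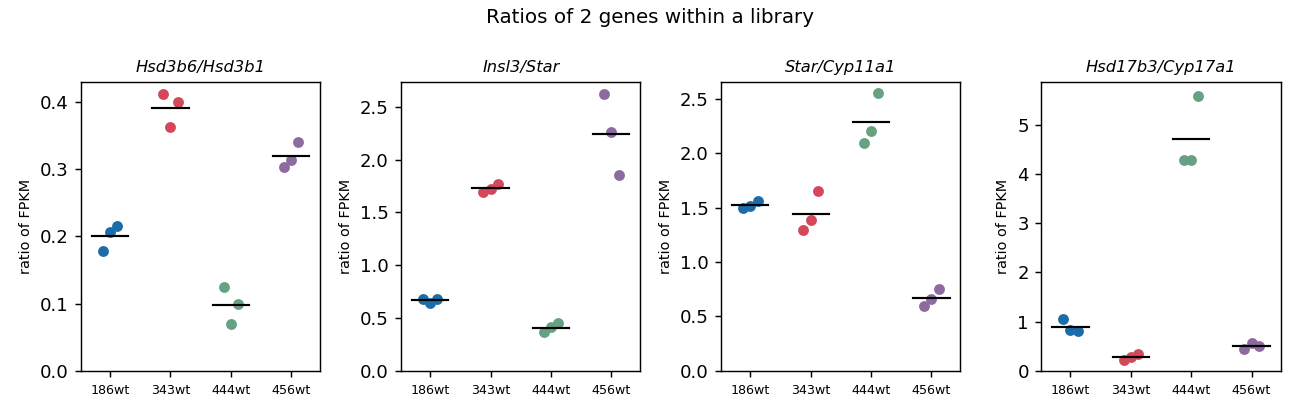
Ratio of the FPKM of 2 genes within each of the 12 libraries, 3 points per sample with a black line at their mean, each axis from 0. Hsd3b6 to Hsd3b1 runs from 0.098 in 444wt to 0.391 in 343wt, and Hsd17b3 to Cyp17a1 reaches 4.72 in 444wt.

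The ratio of Star to Cyp11a1 was 1.52 ± 0.03 in 186wt, 1.45 ± 0.19 in 343wt, 2.28 ± 0.24 in 444wt and 0.670 ± 0.080 in 456wt, so the 456wt libraries held less Star for their Cyp11a1 than the others. Cyp17a1 to Cyp11a1 stayed between 0.633 ± 0.079 in 456wt and 1.05 ± 0.07 in 343wt. The pairs of genes were chosen after their values were seen, and differences between ratios were not tested.

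Members differed in how alike their patterns were, measured as the root mean square difference of log2 levels over the 4 samples, each gene centred on its own mean. Cyp17a1 and Lhcgr were closest, at 0.153, then Cyp11a1 and Hsd3b1, at 0.242, and Hsd3b6 and Hsd17b3 were farthest apart, at 2.24. The members were compared with 12419 genes averaging 1 FPKM or more, leaving out symbols that start with Gm or end in Rik. Among these the nearest to Star were Scara3 (0.12), Lgi4 (0.140) and Gpr30 (0.173). The nearest to Cyp11a1 were Zhx2 (0.097), Lst1 (0.150) and Tyrobp (0.185), a signalling adaptor of myeloid cells. Corin (0.107) was nearest to Cyp17a1, followed by Lhcgr and Cyp11a1. Hsd3b1 was nearest to Cyp11a1, Zhx2 (0.286) and Cyp17a1 (0.314), and Lhcgr to Cyp17a1, Corin (0.204) and Rpl7a-ps11 (0.251). The genes nearest to Insl3 were Eid1 (0.069), Rpl7a-ps11 (0.365) and Emr1 (0.390), a macrophage surface receptor. Of the genes compared, Hsd3b6 had none nearer than Insl3 (0.489), Eid1 (0.505) and Hsd3b1 (0.640). Nr5a1 had Wdr13 (0.006), Ttyh2 (0.008) and Tceb3 (0.013) nearest, and Hsd17b3 had Snord88a (0.086), Npff (0.098) and RP24-372P19.1 (0.107). Eid1, Rpl7a-ps11 and the 3 genes near Hsd17b3 did not pass limma's F-test (adjusted p from 0.0584 for Npff to 0.863 for Snord88a). With 4 points, and members that differ between samples, these values are descriptions.

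Other genes of the pathway varied less than the members. Of 86 listed, 85 were in the table, 74 were tested and 57 passed the F-test, which is 77.0% against 58.2% of all genes. Of the 74, 7 passed with a range over 1, against 10.5% of all genes tested. The median range of the 74 was 0.57, close to the 0.55 of all genes tested, and the largest, 2.01, was that of Prlr. Of the 57, 22 were highest in 343wt and 24 lowest in 444wt.

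Cholesterol supply passed in 9 of 12 genes, none with a range over 1, against 58.2% of all genes passing and 10.5% passing with such a range. Scarb1, the lipoprotein receptor that takes up cholesterol esters, had 122.0 FPKM in 186wt, 124.3 in 343wt, 86.5 in 444wt and 91.9 in 456wt (limma adjusted p = 1.40e-08). Npc2, which moves cholesterol out of lysosomes, and Tspo, a protein of the outer mitochondrial membrane, were both highest in 343wt and lowest in 444wt, with ranges of 0.42 and 0.69. Soat1, which esterifies cholesterol, had its highest level, 45.7 FPKM, in 186wt.

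All 5 redox partners of the steroid P450s passed, and 4 of them were highest in 343wt and lowest in 444wt. Cyb5, which aids Cyp17a1, had 116.5 FPKM in 186wt, 119.4 in 343wt, 74.0 in 444wt and 82.1 in 456wt (limma adjusted p = 9.49e-09). Fdxr and Cyb5b had ranges of 0.56 and 0.59. Fdxr had 41.5 FPKM in 186wt, 41.8 in 343wt, 28.3 in 444wt and 31.5 in 456wt. Cyb5, Fdxr and Cyb5b had more in 186wt and 343wt than in 444wt and 456wt. So had Nr5a1, but also Scarb1, Npc2, Tspo and Soat1, and the share of all genes with this split was not counted. Por, which passes electrons to microsomal P450s, had 40.5 to 46.6 FPKM and was highest in 456wt. Among other steroid enzymes, 10 of 15 tested genes passed, against 58.2% of all genes tested. Hsd17b4 and Hsd17b12 had ranges of 0.16 and 0.15, and Hsd17b11 was highest in 343wt, at 25.1 FPKM, and lowest in 444wt, at 14.3 FPKM. Hsd17b1, which activates estrogen, also had more in 186wt and 343wt, at 3.55 and 3.96 FPKM, than in 444wt and 456wt, at 2.33 and 1.62 FPKM. Hsd11b2, which inactivates glucocorticoids, had 0.74 FPKM in 343wt and 3.08 in 456wt.

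LH and cAMP signalling passed in 10 of 15 genes, none with a range over 1, against 58.2% of all genes passing and 10.5% passing with such a range. Gnas, the stimulatory G protein, had 370.8 FPKM in 343wt and 227.7 in 444wt, and Prkaca, a catalytic subunit of protein kinase A, had 81.4 and 61.9 FPKM. Prkar1a, a regulatory subunit, had 116.8 to 120.8 FPKM and did not pass (limma adjusted p = 0.317). Prkar2a had 21.0 FPKM in 343wt and 11.1 in 456wt, whereas the nuclear receptor Nr4a2 had 0.83 FPKM in 343wt and 1.57 in 444wt. Of the 10 genes that passed, 5 were highest and 4 lowest in 343wt, against 18.9% and 33.1% of all genes called. In 456wt 4 of the 10 were highest, against 28.0%. Of regulators of steroid genes, 13 of 16 passed, against 58.2% of all genes tested. Egr1 and Jun, immediate early genes, were highest in 456wt, at 234.3 and 231.3 FPKM, and Wt1, a Sertoli cell factor, had 127.2 FPKM in 186wt and 84.2 in 456wt. Nr2f2, a factor of interstitial progenitors, and Lhx9 were highest in 456wt, with 37.7 and 3.43 FPKM. Of hormone receptors, 10 of 11 tested passed, against the same 58.2%. Ptch1, Pdgfra and Pdgfrb were highest in 456wt, at 78.6, 34.1 and 7.14 FPKM, and Igf1r was highest in 444wt, at 28.0 FPKM. Prlr, the prolactin receptor, had 1.01 FPKM in 186wt, 3.44 in 343wt, 0.78 in 444wt and 2.04 in 456wt.

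**Figure D4:**
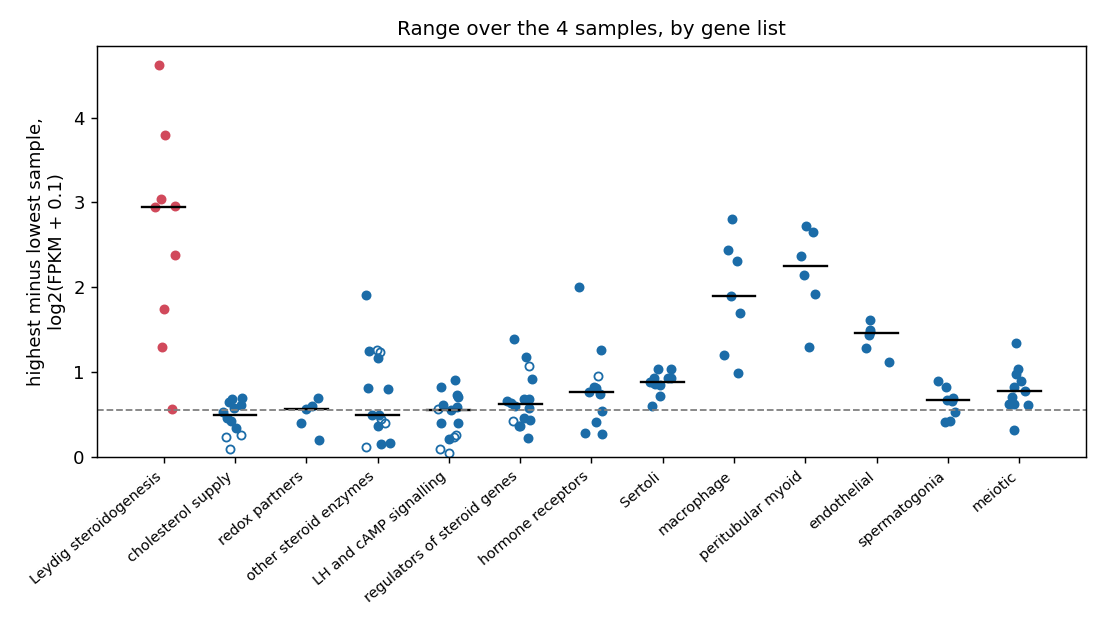
Range over the 4 samples (highest minus lowest sample mean, log2 of FPKM plus 0.1) of each gene by list, filled where limma called the gene and open where it did not, with a line at each list's median and a dashed line at the median of all genes tested. The 9 Leydig steroidogenesis genes have a median of 2.94 against 0.55 for all genes.

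Markers of other cells moved with the samples too. All 7 macrophage genes passed the F-test, 6 of them highest in 343wt and all 7 lowest in 444wt, and their summed level was 18.2 FPKM in 186wt, 36.1 in 343wt, 9.02 in 444wt and 28.3 in 456wt. The peritubular myoid list, of contractile cells around the tubules, had 6 of 6 genes highest in 456wt, with summed levels of 552.8 FPKM in 186wt, 260.7 in 343wt, 695.4 in 444wt and 1161 in 456wt. The endothelial list summed to 19.67, 25.02, 16.19 and 41.9 FPKM in the same order of samples, and all 6 of its genes were highest in 456wt and lowest in 444wt. The list of Leydig stem and interstitial cells had 8 of 10 genes highest in 456wt, with a sum of 533.0 FPKM there and 211.0 to 284.5 in the others. The part of these cells in the members' levels was not tested. Among the 12107 genes called, 2294 were highest in 343wt and 2907 lowest in 444wt, against 8 of the 9 members for each.

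Genes that mark the fetal or the adult Leydig cell apart from the members were mixed. Of 6 fetal markers, 4 were tested and 3 passed, and of these Thbs2 was highest in 456wt, at 7.45 FPKM, and lowest in 343wt. Ren1, which encodes renin, was instead highest in 343wt, at 2.29 FPKM, and lowest in 444wt, at 0.66 FPKM (limma adjusted p = 0.0136). Mc2r and Cyp11b1 had means of 0.013 and 0.063 FPKM. Of 10 adult markers, of which 2 are members, 7 were tested and 5 passed. The share of all genes tested that passed was 58.2%. Vcam1, an adhesion molecule, had 5.98 FPKM in 186wt, 22.5 in 343wt, 4.597 in 444wt and 11.4 in 456wt (limma adjusted p = 1.09e-09) and so took the same order of samples as Insl3. Hsd11b1, at 0.16 to 0.44 FPKM, and Ptgds, at 1.02 to 1.62 FPKM, did not pass (adjusted p = 0.263 and 0.0929). Of 5 genes listed for the adrenal cortex, 4 had means of at most 0.24 FPKM, the value of Cyp21a1. The other, the aldo-keto reductase Akr1b7, had 2.04 FPKM in 186wt, 2.04 in 343wt, 0.69 in 444wt and 1.23 in 456wt and passed (limma adjusted p = 7.30e-05).

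**Figure D5:**
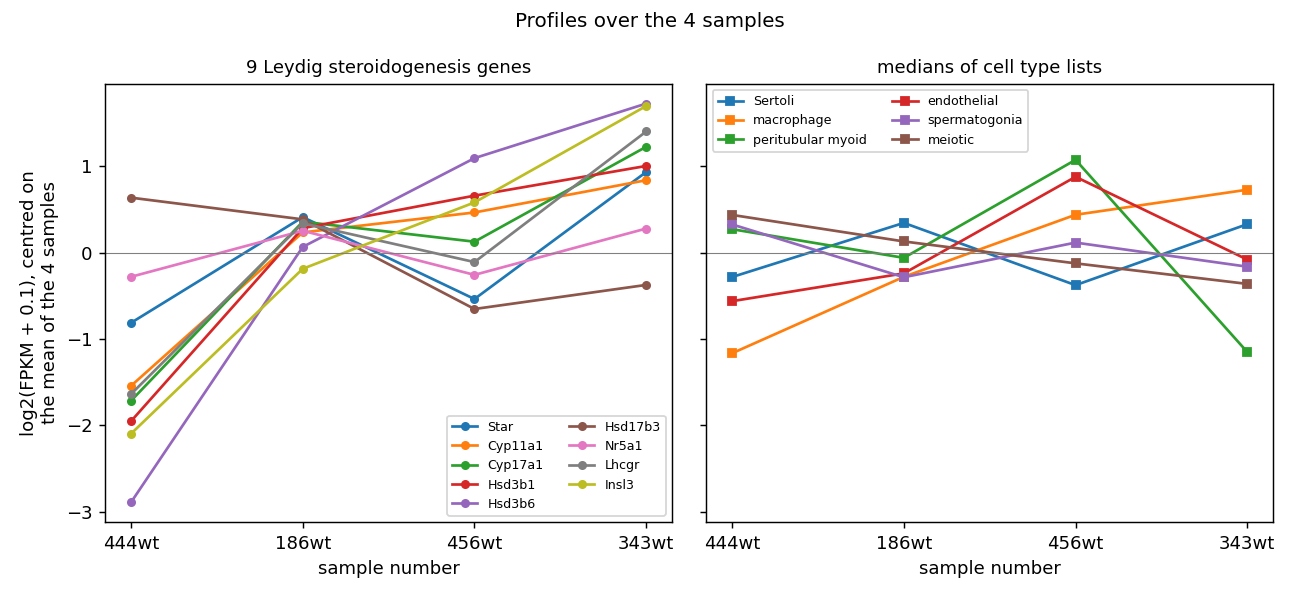
Log2 of FPKM plus 0.1, centred on each gene's or list's own mean, in the order 444wt, 186wt, 456wt and 343wt on the x axis, for the 9 genes (left) and for the medians of cell type lists (right); lines join samples for reading and show no time course. Hsd17b3 starts high at 444wt where the other 8 genes start low, and the Nr5a1 line is close to the Sertoli list (root mean square difference 0.079).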

How the data were processed

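RNA was measured by paired-end sequencing of 12 libraries. The authors aligned reads to the transcriptome of NCBI build 37 with Bowtie 0.12.9, discarded those with at least 2 mismatches and obtained FPKM from RSEM 1.2.8, and the deposited FPKM have 2 decimals. Strand is not given in the sources used here, and RSEM divides reads between similar transcripts. Columns were matched to samples by name, and no column was left without one. From these, genes averaging 0.1 FPKM or more were fitted as log2(FPKM + 0.1) with limma 3.58.1 (lmFit and eBayes with trend, R 4.3.3), with an F-test over the 4 sample numbers and 6 pairwise contrasts, Benjamini-Hochberg adjusted over all genes (and contrasts). Fold changes of low genes are understated on this scale. Other values used Python 3.11.15, numpy 2.4.6, scipy 1.17.1, pandas 2.3.3 and matplotlib 3.10.9. Depth was estimated from the steps between low FPKM, of which 79.4 to 83.5% came within 0.2 of whole fragments, so no count model was used, and intervals cover counting error only and take the longest transcript. Scripts were tested on simulated data. Positions follow GENCODE M1, and promoters RefSeq.

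Named were the 9 members, the pathway genes highest in level (up to 3 a list) or in range (up to 2), Hsd3b paralogs, overlapping genes and the 3 nearest genes to each member. Genes named from the cell type lists were chosen after their values were seen. A few named by this rule are not reported here. The members and lists were chosen with earlier results of these data known. Pseudocounts, filters, scaling, the replicate block and left-out libraries or samples were varied. The ChIP, input and Affinity-seq samples were not analysed here.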

Additional observations from a re-analysis of the deposited data

Results flagged for a closer look

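The ratio of Hsd17b3, the last enzyme of testosterone synthesis, to Cyp17a1, which makes its precursor, was 4.72 in 444wt, far from the other 3 samples at 0.289 to 0.900. Its gap to the nearest sample was 0.862 of the range over the 4 samples, above Dixon's 95% limit for 4 values. Of 33 values examined in this way this was the 1 that passed, and for values not chosen on these data chance would give about 1.65. This pair of genes was chosen after the values were seen, and it joins the member highest in 444wt with a member lowest there, so that count does not apply to it. The ratio combines a high level of Hsd17b3 (8.42 FPKM) and a low level of Cyp17a1 (1.80 FPKM) in that sample, and it was 4.28 to 5.59 in its 3 libraries.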

How the results depend on the processing

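All 9 members passed the F-test under each of the 24 alternatives (other pseudocounts, filters and scalings, the replicate block, no trend, and 1 library or 1 sample left out), with a largest adjusted p of 0.00144, for Cyp11a1 without 444wt. The 8 members higher in 343wt than in 444wt were 8 in each of the 22 alternatives that keep both samples. Without 444wt the range fell from 2.96 to 0.72 for Hsd3b1, from 2.38 to 0.60 for Cyp11a1, from 2.94 to 1.10 for Cyp17a1, from 3.80 to 1.89 for Insl3, from 3.04 to 1.51 for Lhcgr and from 4.62 to 1.66 for Hsd3b6, and without 343wt it fell to 1.98 for Lhcgr. With a pseudocount of 1 it was 1.67 for Lhcgr and 3.03 for Hsd3b6. Without 343wt the mean level fell from 1.47 to 0.93 FPKM for Lhcgr, from 15.5 to 9.18 for Insl3 and from 4.79 to 3.16 for Hsd3b6. Fewer pairs of samples exist when 1 is left out, and 25, 23, 22 and 25 of 27 then passed without 186wt, 343wt, 444wt and 456wt, against 47 of 54. Genes passing numbered 9848 (without 444wt) to 12146, against 12107, and pathway genes 50 to 60, against 57. Leaving out single libraries gave 46 to 49 pairs. Scaling to an equal sum per library, a change of unit, took the median level of the members from 9.05 to 18.9. Scaling by median ratios shifted libraries by -0.06 to 0.06 on the log2 scale. Library numbers are shared between samples, but deviations of same-numbered libraries correlated by r of -0.06 to 0.13 and 5 of 12 libraries were closest to their own number. With the replicate block 11774 genes, 9 members and 48 pairs passed. Depth limits Hsd3b6 and Lhcgr in 444wt, at about 24 and 33 fragments.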

Other observations

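The erythroid list, of hemoglobins and other red cell genes, had 4 of 5 tested genes passing the F-test, against 58.2% of all genes. All 4 were highest in 456wt and lowest in 186wt, against 28.0% and 28.5% of all genes called. The summed level of the list was 30.3 FPKM in 186wt, 77.9 in 343wt, 94.8 in 444wt and 173.4 in 456wt. This order differs from that of the Leydig steroidogenesis genes, whose summed level was 127.2 FPKM in 186wt, 186.0 in 343wt, 66.7 in 444wt and 113.0 in 456wt.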
